A study of Mus musculus with 6 samples.

Results

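The genes described here are the conjugating enzymes of mouse kidney, taken by gene symbol: the UDP-glucuronosyltransferases of families 1 to 3 (Ugt), the soluble glutathione S-transferases (Gst), the microsomal glutathione S-transferases (Mgst) and the sulfotransferases (Sult). They number 73 of 51804 gene symbols: 20 Ugt, 23 Gst, 3 Mgst and 27 Sult. These enzymes attach glucuronic acid, glutathione or a sulfate group to drugs, hormones, bilirubin and reactive by-products of metabolism. The products are more soluble in water, and transporters then move them into urine or bile. In kidney, conjugation is best known from the epithelium of the proximal tubule, which also breaks glutathione conjugates down to mercapturates.

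RNA was sequenced from 6 mouse kidney libraries. In 3 libraries the genotype label gives Ccnb1f/f with Cdh16-Cre (labelled knockout), and in 3 it gives Ccnb1f/f with no Cre (control), so the floxed alleles of Ccnb1 are shared by all 6. Ccnb1 encodes cyclin B1, which with its kinase partner drives entry into mitosis, and the study asked about its role in tubular cells in kidney fibrosis. The Cdh16 promoter directs Cre to the tubular epithelium, while a whole kidney contains vessels, stroma and immune cells that this promoter does not reach. How far Cre reached each tubule segment, the proximal tubule included, cannot be read from these libraries. The sources used here give no age, sex or strain of the mice.

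Each library held between 16061435 and 21261226 estimated counts, of which the conjugating enzymes took 0.569% to 0.702%. Ccnb1 itself had 18, 15 and 11 counts in the libraries labelled knockout, against 11, 17 and 7 in control libraries, so at this depth the targeted gene does not check the labels. Of 15017 genes tested, edgeR's quasi-likelihood test with Benjamini-Hochberg adjustment (adjusted p under 0.05) called 2, Mcm6 (higher in libraries labelled knockout) and Kap (lower). Kap had 0 counts in each library labelled knockout, against 270761, 172207 and 284320 in control 1 to 3. Control 2 stood apart from the other libraries on the first principal component (28.6% of variance), at -49.6 against -7.23 to 22.1. On the second (23.3%), libraries labelled knockout lay at -29.7 to -8.21 and control libraries at 7.36 to 37.2. The summed CPM of control 2 (TMM-scaled counts on a common library total) over 5 genes known to be higher in male kidney was 3892, against 8044 to 10272 in the other 5 libraries. Over 4 genes known to be higher in female kidney, control 2 had 1258 CPM, against 638 to 1118 CPM in the other 5 libraries. The 7 proximal tubule markers were all detected, with a summed level of 16042 to 18801 CPM in libraries labelled knockout and 15218 to 19988 CPM in control libraries. In bulk tissue, fewer cells of a type and less RNA per cell cannot be told apart. Whether each library is a different animal is not stated in the labels, so a p-value here reflects library-to-library spread, some of which may be technical.

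Some of these genes are near-copies of each other, and the sequences show where a read can or cannot separate them. The 9 Ugt1a genes lie in a single locus on chromosome 1 (chr1:88055388-88220002, GRCm38, plus strand). Each has a first exon of its own, of 879 to 954 bases in the transcript compared, spliced to common exons 2 to 5, of which 1311 bases are present in all 9 transcripts. The junctions of 5 of them are shown in the 5′ to 3′ direction, chosen because their counts differed most between libraries or because they are the closest pair (Ugt1a6a and Ugt1a6b). Lower case marks the last 30 bases of the first exon, and capitals mark the first 30 bases of the common exon 2 (GENCODE M21 transcripts, GRCm38).
Ugt1a10: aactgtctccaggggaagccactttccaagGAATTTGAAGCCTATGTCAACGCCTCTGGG
Ugt1a7c: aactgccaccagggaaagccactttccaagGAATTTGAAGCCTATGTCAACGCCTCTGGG
Ugt1a6a: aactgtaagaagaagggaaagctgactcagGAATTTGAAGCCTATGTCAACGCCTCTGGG
Ugt1a6b: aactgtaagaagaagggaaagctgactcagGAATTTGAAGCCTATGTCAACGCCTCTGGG
Ugt1a2: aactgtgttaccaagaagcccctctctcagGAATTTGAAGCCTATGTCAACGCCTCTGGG
The capitals are the same in all 5, so a read that lies wholly within the 1311 bases common to all 9 transcripts fits each of them. Ugt1a6a and Ugt1a6b share the lower-case 30 bases as well, and their first exons are 96.5% identical over the aligned bases. Ugt1a2 shares its lower-case 30 bases with Ugt1a5, which is not printed, and the first exons of these are 81.0% identical. The first exons of Ugt1a10 and Ugt1a7c are 80.2% identical. The Ugt1a7c transcript alone carries another 998 bases after the shared part, at its 3′ end.

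The Ugt2b genes lie on chromosome 5, each with its full set of exons. Among those compared, the transcripts of Ugt2b37, Ugt2b38 and Ugt2b5 are 93.4% to 95.7% identical to each other. Ugt2b34 is 74.3% to 75.3% identical to them. Ugt2b37 (chr5:87240493-87254804, GRCm38, minus strand) and Ugt2b38 (chr5:87409942-87424203, minus strand) are 93.5% identical between transcripts. The 250 bases before the start of each gene (RefSeq, GRCm38.p6) are printed because DESeq2, below, called only Ugt2b37, with no test between the pair. They are written 5′ to 3′ on the minus strand, from chr5:87254789-87255038 for Ugt2b37 and chr5:87424204-87424453 for Ugt2b38. Capitals mark the 26 bases of each that an alignment did not pair with an identical base of the other, and the capitals at either end come mostly from windows that start a few bases apart. The start is RefSeq's, and the gene as deposited reaches a few bases into the Ugt2b37 window.
Ugt2b37: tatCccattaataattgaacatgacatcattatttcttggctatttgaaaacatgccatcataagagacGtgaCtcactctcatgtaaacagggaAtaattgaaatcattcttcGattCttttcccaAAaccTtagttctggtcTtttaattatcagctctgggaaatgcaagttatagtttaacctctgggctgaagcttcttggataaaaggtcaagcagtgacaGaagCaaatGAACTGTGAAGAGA
Ugt2b38: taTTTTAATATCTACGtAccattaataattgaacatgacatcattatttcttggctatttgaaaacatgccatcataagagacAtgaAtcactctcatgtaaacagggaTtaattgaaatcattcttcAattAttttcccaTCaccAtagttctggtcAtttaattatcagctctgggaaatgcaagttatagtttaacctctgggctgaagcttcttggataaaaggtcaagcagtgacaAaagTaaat
Where both windows were aligned, 94.9% of the bases were identical. The third close relative, Ugt2b5, is 88.1% identical to Ugt2b37 over the same upstream bases and 93.4% identical in its transcript.

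On FPKM (fragments scaled to transcript length and library total, deposited by the authors and summed per gene), which allows levels of different genes to be compared, Ugt genes made up 44.1% of the summed level of all conjugating enzymes. Gst genes made up 41.3%, Sult genes 10.1% and Mgst genes 4.56%, as means over the 6 libraries. Ugt3a2 was the most abundant member, at 691 FPKM on average. Gstm1 followed at 382 FPKM, then Ugt2b38 at 298, Sult1d1 at 288 and Gstz1 at 282 FPKM. The last 3 were within the spread between libraries, since Gstz1 alone ranged over 252 to 297 FPKM. In all, 13 members averaged more than 100 FPKM and 26 more than 10 FPKM.

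**Figure D1:**
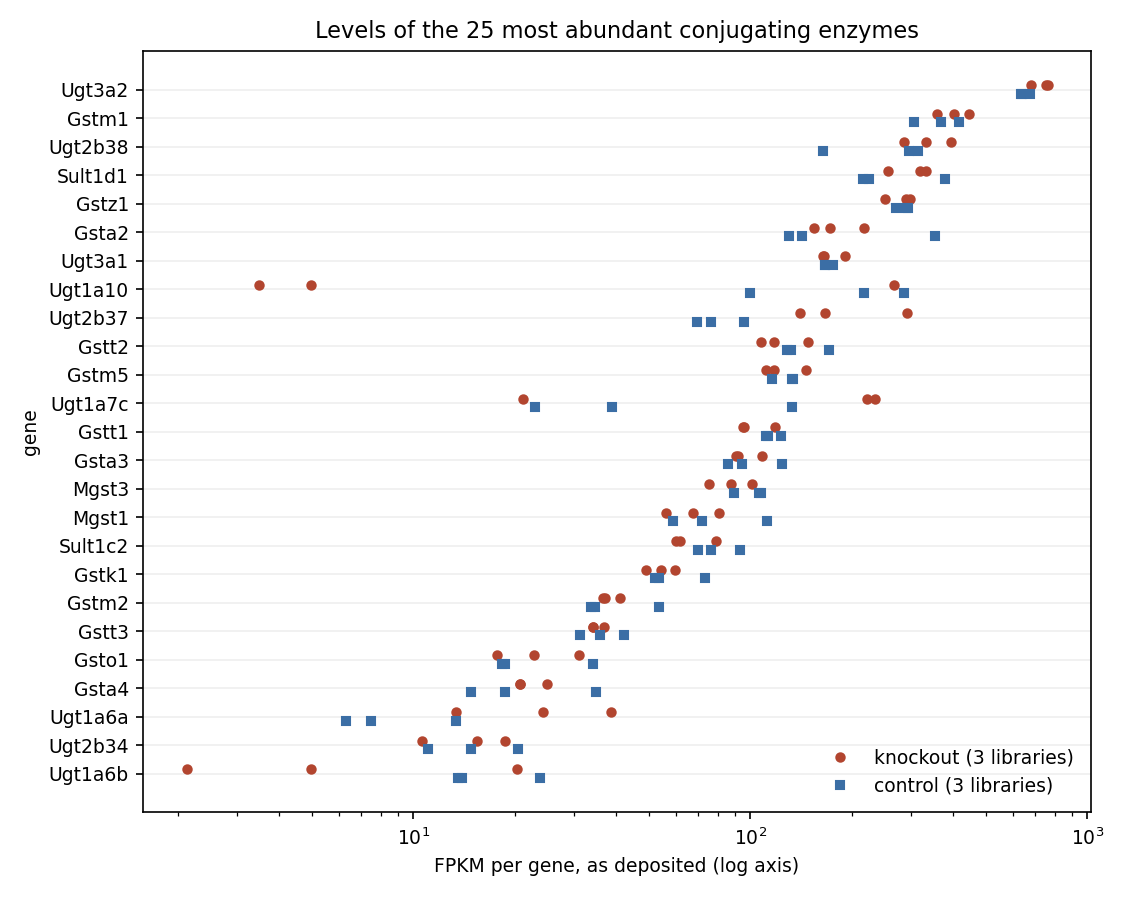
Deposited FPKM summed per gene, on a log axis, for the 25 most abundant conjugating enzymes, with a circle for each of 3 libraries labelled knockout and a square for each of 3 control libraries. Ugt3a2 lies highest, and the Ugt1a10 and Ugt1a7c points are spread over the axis in both groups while most other genes form tight clusters.

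Of the 73 members, 40 passed the expression filter and were tested. Another 13 had too few counts, or counts in too few libraries, to pass, and 20 had no count in any library. The highest count among those 13 was 71, for Ugt1a5 in knockout 1. That gene had 30 counts in control 2 and none elsewhere. A count of 0 allows up to 3 counts, or 0.138 to 0.189 CPM, at these depths (counting error only). The 20 undetected members comprise 16 Sult symbols, 2 Gst genes (Gstp3 and Gstt4) and 2 Ugt genes (Ugt2a1 and Ugt2b1). Of the Sult symbols, 6 are pseudogenes by name, and 11 are Sult2a symbols, the pseudogenes Sult2a-ps1 to Sult2a-ps4 among them. The Sult2a enzymes sulfate steroids and bile acids and are best known from liver. Sult1e1, the estrogen sulfotransferase, had 1 count in control 3 and none in the other 5 libraries.

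In libraries labelled knockout against control libraries, 0 of the 40 tested members passed the adjusted threshold of edgeR's quasi-likelihood test with Benjamini-Hochberg adjustment, where 0.0133% of all tested genes did. The adjusted p was 0.999 for each of the 40. At an unadjusted p under 0.05, 2 members were higher in libraries labelled knockout (Ugt2b37 and Ugt1a6a; background 1.35% of all tested genes) and 2 were lower (Gstm7 and Ugt1a2; background 1.88%). The libraries labelled knockout all lay above the control libraries in Ugt2b37 and Gsto2, 2 of 40, where 4.08% of all tested genes did so. They all lay below in Gstm7 and Sult2b1, again 2 of 40, where the background was also 4.08%. DESeq2 on the same counts called 1 member, Ugt2b37, where it called 0.0932% of all tested genes. The median log2 fold change of the 40 members (labelled knockout over control) was -0.04, with 15 positive and 25 negative, beside a median of -0.01 over all tested genes.

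**Figure D2:**
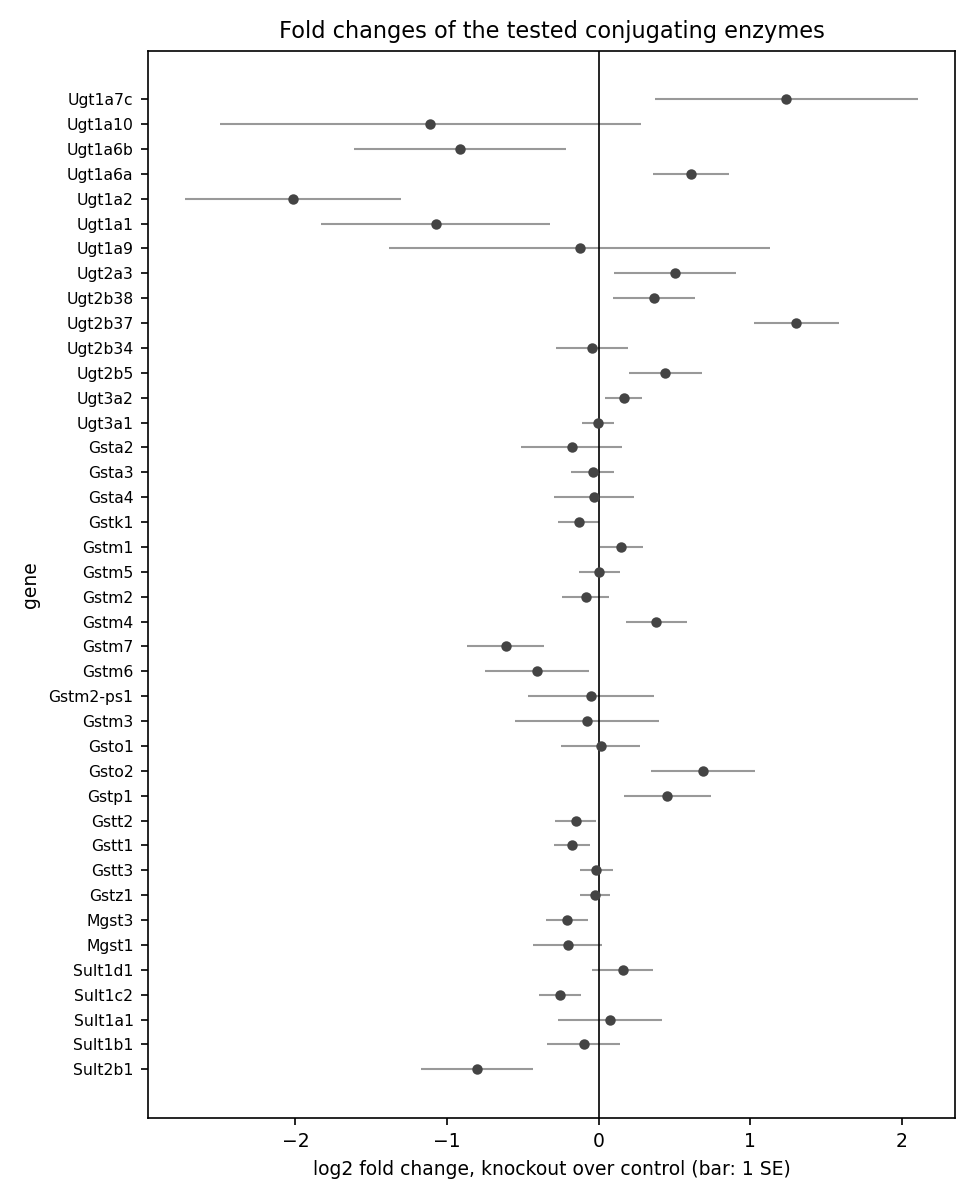
The log2 fold change, labelled knockout over control, of each of the 40 tested members from edgeR, with bars of 1 SE. Most lie within 0.5 of 0, Ugt2b37 lies at 1.31 with a short bar, and 6 of the 7 Ugt1a genes have the longest bars.

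Ugt2b37 encodes a glucuronosyltransferase of family 2B, a family that in mammals conjugates steroids and other lipophilic substrates. It had 5466, 8841 and 5667 estimated counts in libraries labelled knockout 1 to 3, against 3099, 2686 and 2318 in control 1 to 3. All 3 libraries labelled knockout were above all 3 control libraries, and knockout 2 was the highest. Its level was 379 ± 158 CPM in libraries labelled knockout and 153 ± 30.2 CPM in control libraries (SD, n = 3 each). In edgeR the log2 fold change was 1.31 with an SE of 0.28, an unadjusted p of 0.00164 and an adjusted p of 0.999. By an exact permutation test (two-sided) p was 0.1, the smallest that 3 against 3 libraries allow. DESeq2 gave a log2 fold change of 1.30 with an adjusted p of 0.000982, while over the other fits the adjusted p was 0.112 to 1.00. The log2 fold change was 0.91 without knockout 2 and 1.51 without knockout 3, the extremes over libraries left out in turn. All counts of this gene were deposited as whole numbers on a single transcript.

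The near-copies of Ugt2b37 passed the threshold in none of the fits. Ugt2b38 had 9367, 11957 and 13369 counts in libraries labelled knockout, against 10181, 5766 and 9859 in control libraries. The groups overlapped, and control 2 was the lowest library. Its log2 fold change was 0.37 with an SE of 0.27, and 0.10 without control 2. Ugt2b5 had a log2 fold change of 0.44 (SE 0.24). The less similar Ugt2b34, 74.3% identical to Ugt2b37 between transcripts, had one of -0.04 (SE 0.24). Ugt2a3, a family member of the same gene cluster, had a log2 fold change of 0.50 (SE 0.40) at 5.36 ± 1.84 CPM in libraries labelled knockout and 3.79 ± 1.63 CPM in control libraries (SD, n = 3 each). Ugt2b35 and Ugt2b36 had 1 count each in the 6 libraries together.

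Summed over the family, the 7 Ugt2b genes had 903, 1375 and 945 CPM in libraries labelled knockout, against 853, 494 and 767 CPM in control libraries. The groups did not overlap, with the lowest value in control 2, and no test was made of this sum. Markers of the straight part of the proximal tubule stood at 1322 to 2504 CPM in libraries labelled knockout and 1206 to 1852 CPM in control libraries. All 4 of these markers were detected and had positive log2 fold changes, with a median of 0.43, and 0 were called. Knockout 2 was the highest library and control 2 the lowest, for this marker sum as for the Ugt2b sum. The 5 genes higher in male kidney had positive log2 fold changes too, with a median of 0.33 and 0 called. Of the 4 genes higher in female kidney, 2 were positive and 2 negative, with a median of -0.47 and 0 called. Other marker lists differed between libraries as well. The 4 macrophage markers summed to 100.1 to 112 CPM in libraries labelled knockout and 86.5 to 92.6 CPM in control libraries. Of 17 marker lists, only this list had sums that did not overlap between groups. The 4 fibroblast markers all had negative log2 fold changes, with a median of -0.42, 3 at an unadjusted p under 0.05 and 0 called. Immediate early and heat shock genes summed to 1301 CPM in control 3, against 42.4 to 167 CPM in the other 5 libraries. The part of these lists in the values of the conjugating enzymes was not tested.

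Ugt3a2, on chromosome 15, belongs to a family whose human members use sugar donors other than UDP-glucuronic acid. It had 1589, 1793 and 1717 CPM in libraries labelled knockout, against 1542, 1391 and 1616 CPM in control libraries. The groups overlapped in 1 library on each side. Its log2 fold change was 0.16 with an SE of 0.12. Its neighbour Ugt3a1 was nearly equal between groups, with a log2 fold change of 0.00, an SE of 0.10 and levels of 165 to 191 FPKM in libraries labelled knockout and 166 to 176 FPKM in control libraries.

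**Figure D3:**
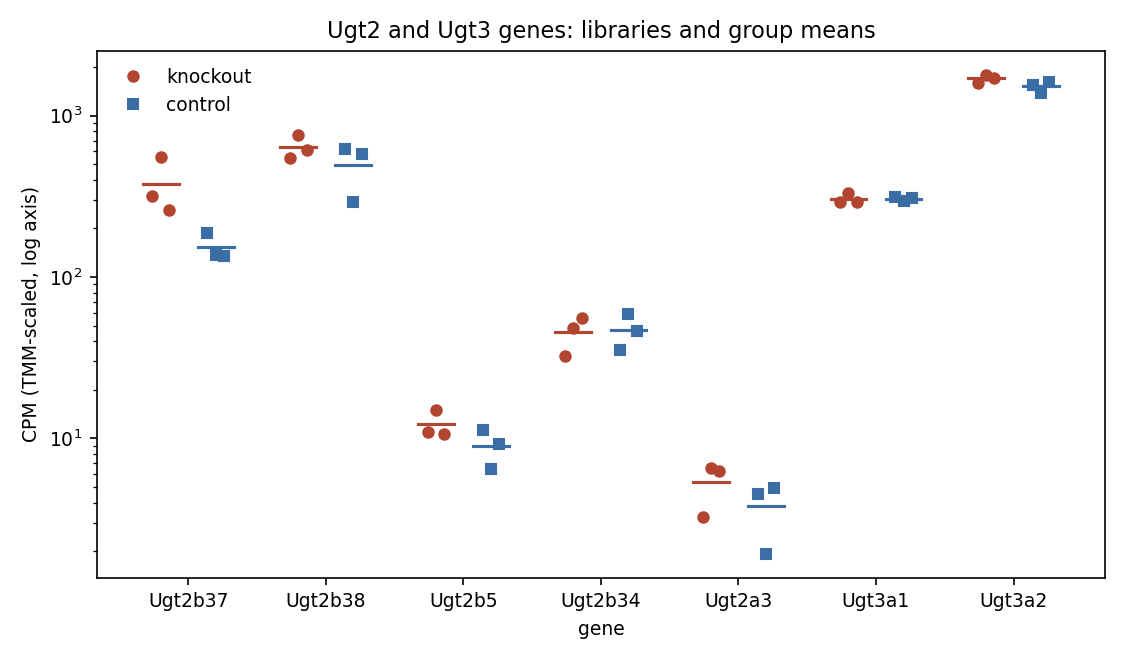
TMM-scaled CPM on a log axis for the 7 tested Ugt2 and Ugt3 genes, with circles for libraries labelled knockout, squares for control libraries and a line at each group mean. Ugt2b37 is the 1 gene of the 7 whose groups do not overlap, and control 2 is the low square in Ugt2b38, Ugt2b5 and Ugt2a3.

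The Ugt1a genes conjugate bilirubin, phenols and many drugs, and Ugt1a1 is the bilirubin enzyme. Their counts were divided very differently between libraries, while the sum over the locus varied little. Ugt1a10 took 74.0% of the locus' counts in knockout 1 and 0.946% and 1.22% in knockout 2 and 3, against 30.5%, 71.7% and 67.2% in control 1 to 3. Ugt1a7c took 8.59%, 92.3% and 91.6% in libraries labelled knockout 1 to 3, against 56.6%, 8.25% and 17.3% in control 1 to 3. Knockout 1 resembled control 2 and control 3 in this division, so the split did not follow the group labels. The 9 genes together had 13661, 12430 and 15379 counts in libraries labelled knockout, against 12169, 16177 and 12428 in control libraries. Taken as a single feature in the edgeR fit, the locus had a log2 fold change of 0.00 with an SE of 0.11.

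**Figure D4:**
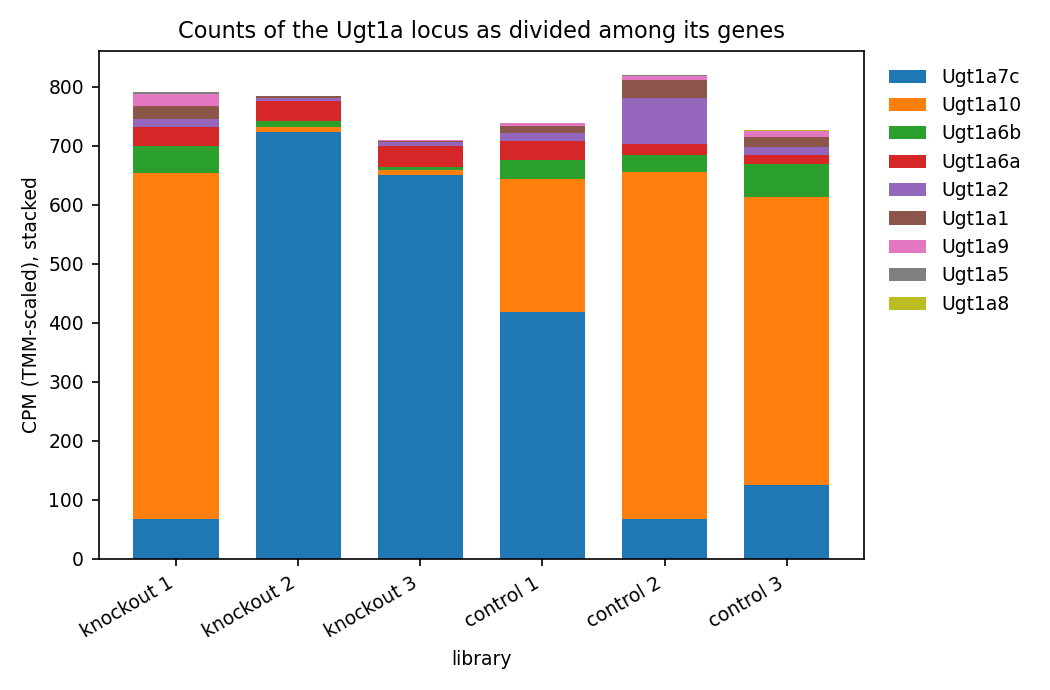
TMM-scaled CPM of the 9 Ugt1a genes, stacked in 1 bar for each of 3 libraries labelled knockout and 3 control libraries. The bars are of similar height, 709 to 820 CPM, while the Ugt1a10 and Ugt1a7c segments exchange places between libraries.

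Of the 46 Ugt1a gene counts above 0, only 3 (6.52%) lay within 0.02 of a whole number, against 94.5% of those of the other members. Fractional counts arise where a program divides reads among transcripts. Together with the shared exons shown above, this makes the count of any single Ugt1a gene uncertain. The part of read division in the differences between libraries was not tested. The SD of log2 CPM over the 6 libraries had a median of 1.36 for the 7 tested Ugt1a genes, against 0.28 for the other tested members and 0.20 for all tested genes.

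For Ugt1a10 the log2 fold change was -1.11 with an SE of 1.39, which spans both directions. Without knockout 1 it was -5.74 with an adjusted p of 0.0238 in edgeR, the one edgeR fit that called a conjugating enzyme. Over the other fits of this gene the adjusted p was 0.917 to 1.00. On log2(FPKM + 1) limma gave -3.26, a mean of log values that weights knockout 2 and 3 more than a ratio of mean counts does. Ugt1a7c had a log2 fold change of 1.24 with an SE of 0.87, which was 2.32 without control 1 and 0.82 without knockout 2 or without control 2. Ugt1a9, whose first exon is 91.6% identical to that of Ugt1a10, had 344, 0 and 13 counts in libraries labelled knockout, against 90, 134 and 172 in control libraries. It was thus high in knockout 1 and near 0 in knockout 2 and 3, as Ugt1a10 was.

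Both Ugt1a genes with an unadjusted p under 0.05 belong to this uncertain set. Ugt1a6a, a phenol-conjugating enzyme, had 551, 524 and 765 counts in libraries labelled knockout, against 530, 350 and 272 in control libraries. The groups overlapped at control 1. Its log2 fold change was 0.61 with an SE of 0.25 on counts, and 1.34 by limma on log2(FPKM + 1), where the division among its 4 transcripts of unequal length also enters. Ugt1a2 had 229, 93 and 149 counts in libraries labelled knockout, against 227, 1543 and 223 in control libraries. Control 2 was far above the other 5 libraries, and knockout 1 lay just above control 3 in CPM, so the groups overlapped. Its log2 fold change was -2.02 with an SE of 0.71, and -0.63 without control 2. Ugt1a1 had 385, 48 and 66 counts in libraries labelled knockout, against 193, 610 and 289 in control libraries, and the groups overlapped.

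The Gst genes join glutathione to electrophiles, and each letter names a class. The mu class has 7 genes in a cluster on chromosome 3, with the pseudogene Gstm2-ps1 on chromosome 5. Its most abundant gene, Gstm1, had 517, 578 and 448 CPM in libraries labelled knockout, against 488, 499 and 403 CPM in control libraries. The groups overlapped, and the log2 fold change was 0.15 with an SE of 0.14. Gstm7, also of the mu class, had 107, 137 and 151 counts in libraries labelled knockout, against 144, 302 and 158 in control libraries. After scaling for depth every library labelled knockout was below every control library, by a small margin for knockout 2 (8.64 CPM) against control 1 (8.74 CPM), and control 2 was the highest at 15.3 CPM. Its log2 fold change was -0.61 with an SE of 0.25, and -0.31 without control 2. The 8 tested mu genes had 3 positive and 5 negative log2 fold changes, with a median of -0.06.

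The alpha class holds Gsta2, Gsta3 and Gsta4, of which Gsta4 is known for conjugating the lipid peroxidation product 4-hydroxynonenal. Gsta2 had 178, 128 and 136 CPM in libraries labelled knockout, against 109, 270 and 119 CPM in control libraries. Control 2 was the highest library, and the other 2 control libraries were below all 3 libraries labelled knockout. The log2 fold change of Gsta2 was -0.18 with an SE of 0.33 over all libraries and 0.37 without control 2. Gsta4 behaved alike, with -0.03 over all libraries and 0.35 without control 2. Gsta1 stayed below the filter, at 4 to 10 counts per library.

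Gstz1 is the maleylacetoacetate isomerase of tyrosine breakdown and had the tightest groups among the abundant Gst genes. It had 353, 386 and 381 CPM in libraries labelled knockout, against 380, 367 and 390 CPM in control libraries. The log2 fold change was -0.02 with an SE of 0.10, and its interval ran from -0.25 to 0.21. The theta class, which acts on small halogenated and sulfate-bearing substrates, had 3 tested genes. Its most abundant gene, Gstt2, had 169, 129 and 141 CPM in libraries labelled knockout, against 150, 183 and 154 CPM in control libraries. The groups overlapped, and its log2 fold change was -0.15 with an SE of 0.13.

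The omega enzymes reduce dehydroascorbate and arsenic compounds. Gsto2 had 18, 14 and 23 counts in libraries labelled knockout, against 9, 13 and 11 in control libraries. The groups did not overlap in CPM, at 0.88 to 1.06 in libraries labelled knockout and 0.55 to 0.66 in control libraries, with a log2 fold change of 0.69 (SE 0.34). These counts are near the filter. Gsto1, which is far more abundant at 23.7 FPKM against 0.62 FPKM for Gsto2, had a log2 fold change of 0.01 (SE 0.26). Gstp1, the pi-class enzyme known from the lung and from tumours, was low here at 3.02 FPKM, with a log2 fold change of 0.45 (SE 0.28). Gstk1, a kappa-class enzyme of mitochondria and peroxisomes, had one of -0.13 (SE 0.14).

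The microsomal enzymes sit in membranes and act on lipid hydroperoxides and, for Mgst2 and Mgst3, on leukotrienes. Mgst3 had 111, 97.0 and 81.0 CPM in libraries labelled knockout, against 123, 109 and 102 CPM in control libraries. Knockout 1 lay within the control range and the other 2 below it, and the log2 fold change was -0.21 with an SE of 0.14. Mgst1 had 75.3, 54.9 and 57.4 CPM in libraries labelled knockout, against 63.1, 98.3 and 54.7 CPM in control libraries. Its groups overlapped, and its log2 fold change was -0.20 with an SE of 0.23, and 0.086 without control 2. Mgst2 stayed below the filter, with 3, 2 and 4 counts in libraries labelled knockout and 3, 7 and 1 in control libraries.

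Of the 27 Sult symbols, of which 6 are pseudogenes by name, only 5 were tested, and Sult1d1 was the most abundant. This gene, known in mouse as a catecholamine sulfotransferase, had 622, 781 and 790 CPM in libraries labelled knockout, against 564, 863 and 539 CPM in control libraries. Control 2 was the highest library, and the other 2 control libraries were the lowest. The log2 fold change was 0.16 with an SE of 0.20, and 0.41 without control 2. Sult1c2 had 146, 112 and 112 CPM in libraries labelled knockout, against 146, 162 and 133 CPM in control libraries, with a log2 fold change of -0.26 (SE 0.14) and overlap at knockout 1.

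Sult1a1, the phenol sulfotransferase, had 17.0, 7.89 and 11.4 CPM in libraries labelled knockout, against 13.4, 14.2 and 6.78 CPM in control libraries. The groups overlapped, with the highest value in knockout 1 and the lowest in control 3, and the log2 fold change was 0.08 with an SE of 0.34. Sult1b1, a thyroid hormone sulfotransferase, had 3.54, 4.23 and 5.26 CPM in libraries labelled knockout, against 4.37, 3.95 and 5.67 CPM in control libraries, with a log2 fold change of -0.10 (SE 0.24). Sult2b1, which sulfates cholesterol, had 13, 9 and 10 counts in libraries labelled knockout, against 17, 18 and 20 in control libraries. Its groups did not overlap, and its log2 fold change was -0.80 with an SE of 0.37, at counts near the filter.

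**Figure D5:**
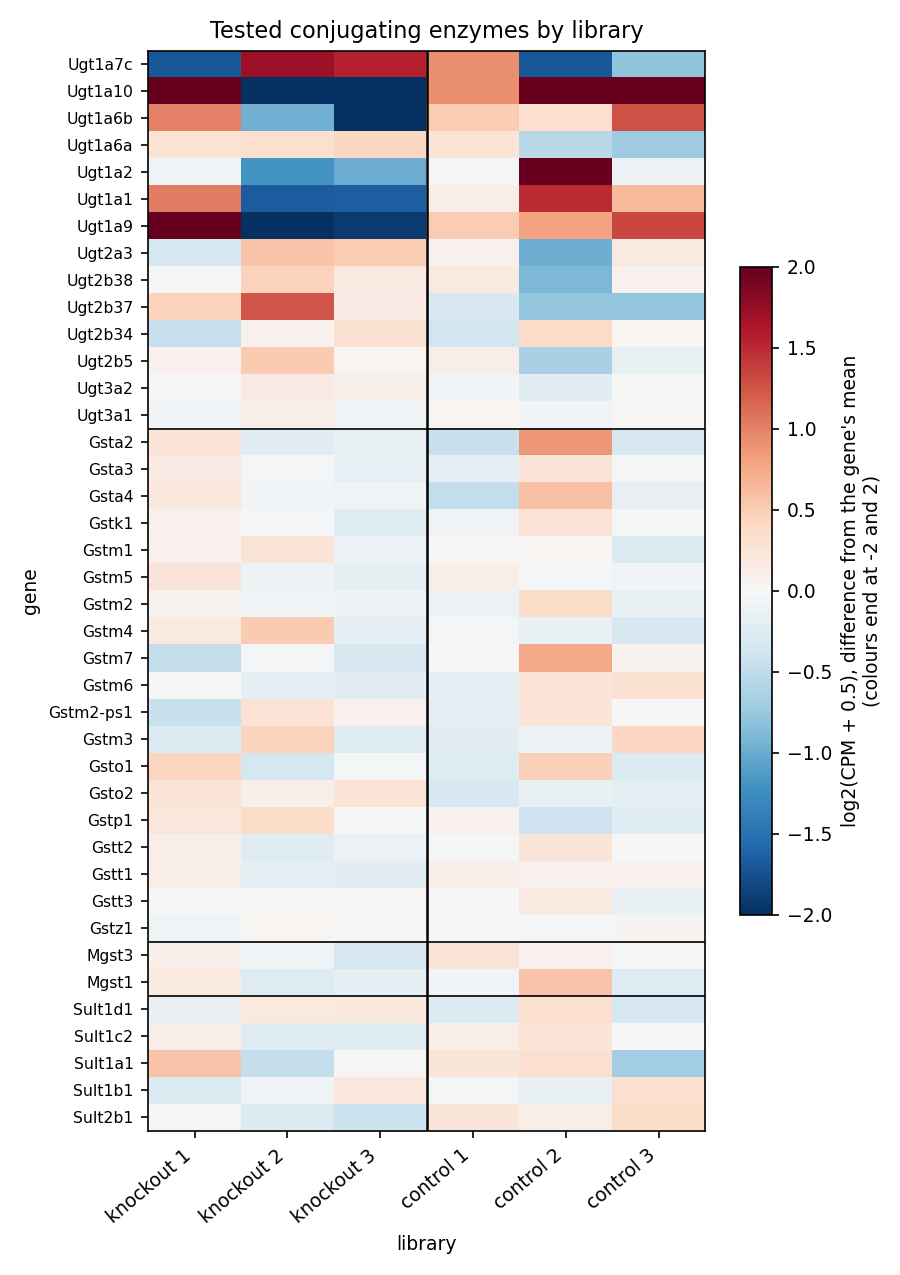
Difference of log2(CPM + 0.5) from each gene's mean, for the 40 tested members in rows (Ugt at the top, then Gst, Mgst and Sult) and the 3 libraries labelled knockout left of the 3 control libraries in columns, with colours ending at -2 and 2. The Ugt1a rows at the top hold the strongest colours and divide libraries across the group labels, and the column of control 2 is the reddest among Gst rows.

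Across the members, control 2 was the library that most often stood at an end. It had the highest level of the 6 libraries in 16 of 40 tested members, while it did so in 23.8% of all tested genes. Among Gst genes it was highest in 9 of 19. Among the 14 tested Ugt genes, knockout 2 was highest in 7 and lowest in 4, while control 2 was highest in 4 and lowest in 5. Over all tested genes, knockout 2 was highest in 15.0% and lowest in 14.6%, and control 2 was lowest in 22.8%. Without control 2 the median log2 fold change of the tested members was 0.090, against -0.04 with it. Summed over all members, the levels were 6400, 7108 and 6340 CPM in libraries labelled knockout, against 6047, 6223 and 5874 CPM in control libraries. In CPM these groups did not overlap. In FPKM the same sum did overlap, at 3668 to 3960 in libraries labelled knockout and 3340 to 4038 in control libraries. As a share of the unscaled counts it overlapped too, at 0.638% to 0.702% and 0.569% to 0.660%. The Ugt sum did not overlap in CPM, at 3580 to 4289 in libraries labelled knockout and 3001 to 3451 in control libraries. The Gst sum overlapped, at 1614 to 1843 CPM in libraries labelled knockout and 1609 to 1969 CPM in control libraries. No test was made of these sums, no background was set beside them, and abundant genes weigh most in them. Group means (labelled knockout, then control) were 1074 and 705 CPM for Ugt2b, 2004 and 1822 CPM for Ugt3a, and 762 and 761 CPM for Ugt1a. Of the 40 tested members, 15 had a positive and 25 a negative log2 fold change.

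The wider pathway was read from 8 lists of 85 genes, of which 81 were tested. None passed the adjusted threshold of edgeR with Benjamini-Hochberg adjustment, and 2 had an unadjusted p under 0.05, both higher in libraries labelled knockout. These were Kyat1, a cysteine conjugate beta-lyase of the mercapturate route, at 147 ± 15.0 CPM in libraries labelled knockout and 107 ± 20.0 CPM in control libraries (SD, n = 3 each), and Nat2, an arylamine acetyltransferase, at 19.9 ± 0.60 CPM in libraries labelled knockout and 15.7 ± 1.22 CPM in control libraries. Over all tested genes, 1.35% were higher at that unadjusted p. Groups did not overlap in 5 of the 81 genes with the libraries labelled knockout above and in 2 below, where 4.08% of all tested genes did so in either direction taken alone. The median log2 fold change of the 81 was 0.02.

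The supply of sugar donor begins with Ugp2, which makes UDP-glucose, and Ugdh, which oxidises it to UDP-glucuronic acid. Ugp2 had 230, 174 and 200 CPM in libraries labelled knockout, against 169, 170 and 170 CPM in control libraries. Those groups did not overlap, and the log2 fold change of Ugp2 was 0.25 with an SE of 0.12. Ugdh had a log2 fold change of -0.02 with an SE of 0.13. Of the 6 genes of this list, 3 had a positive and 3 a negative log2 fold change.

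Ggt1, the brush-border enzyme that opens glutathione conjugates, had 1300 ± 65.2 CPM in libraries labelled knockout and 1198 ± 340 CPM in control libraries (SD, n = 3 each). Acy3, an aminoacylase that acts on mercapturates, had 1433 ± 51.2 CPM in libraries labelled knockout and 1126 ± 432 CPM in control libraries (SD, n = 3 each), with control 2 lowest at 654 CPM. Among efflux pumps, Abcg2 had a log2 fold change of 0.19 (SE 0.12) and Abcc2 one of -0.07 (SE 0.12), and 8 of 9 pumps were negative with a median of -0.25. Among regulators, Hnf4a, a hepatocyte nuclear factor that proximal tubule cells also use, had a log2 fold change of 0.03 (SE 0.17). Of the 16 tested regulators, 5 were positive and 11 negative.

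Promoters of 58 members were found in the RefSeq table, 70 windows of 300 bases in all. They were searched on both strands for 4 short motifs. A core of the hepatocyte nuclear factor 1 site, GTTAAT, was in 20.0% of these windows and in 7.10% of all windows in the table. The core of the xenobiotic response element, GCGTG, was in 20.0% of members' windows and 32.4% of all, and the core of the antioxidant response element, TGACNNNGC, in 5.71% and 12.4%. The hepatocyte nuclear factor 4 core CAAAGGTCA was in none of the members' windows and in 0.478% of all. Of the members with the GTTAAT letters, 9 were tested: Ugt1a10, Ugt1a9, Ugt1a6a, Ugt1a1, Ugt2a3, Ugt3a1, Sult1a1, Sult1d1 and Gsta3. The others were Sult2a3, below the filter, and Sult2a4, Sult2a5, Sult2a6 and Sult3a2, which had no count in any library. Those with the TGACNNNGC letters were Gsta3, Gstm5, Gstm7 and Mgst1. These matches describe letters only, and the windows printed for Ugt2b37 and Ugt2b38 hold no GTTAAT.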

How the data were processed

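The members and the gene lists were chosen with earlier results of these data known. The authors deposited estimated counts, without normalization, and FPKM values for 128603 transcripts of 6 kidney libraries; the FPKM values match these counts divided by GENCODE transcript length (within 5% for 97.2% of 90824 values). Per the submitters' processing notes, the build was GRCm38 and the tools were HISAT2 2.0.1, Cuffdiff 2.2.1, cutadapt 1.9.1, FastQC 0.10.1 and bcl2fastq 2.17.1.14. Neither strandedness nor the counting program is stated in the sources used here. Protocol text in the labels also speaks of cultured cells and quantitative PCR, while the tissue label is kidney.

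Counts were summed per gene symbol and rounded to whole numbers. All 6 libraries were fitted with edgeR 4.0.16 in R 4.3.3: TMM, filterByExpr (minimum count 10), group as the only term, the two-sided quasi-likelihood test and Benjamini-Hochberg adjustment over 15017 genes (threshold 0.05). The SE was taken as the size of the log2 fold change over the root of F. The script was tested on simulated data. Alternatives were DESeq2 1.42.0, limma 3.58.1 on log2(FPKM + 1) or log2(FPKM + 0.1) with at least 1 FPKM in 3 libraries, no filter, relative log expression factors, sums per gene ID, the Ugt1a genes as 1 feature, the replicate number as a block, and each library left out. Library-wise values are given for the 4 members of highest mean CPM in each of Ugt, Gst, Mgst and Sult, for members with an unadjusted p under 0.05, and for those called in any fit; others shown, such as Gsto2, Sult2b1, Ugt1a9 and Ugt1a1, were chosen after their values were seen. Transcript sequences are from GENCODE M21 (GRCm38) and upstream sequences from RefSeq (GRCm38.p6), whose build matches the files.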

Additional observations from a re-analysis of the deposited data

How the results depend on the processing

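No conjugating enzyme was called by edgeR without the filter, with relative log expression factors, per gene ID, with Ugt1a as 1 feature or with the replicate block, nor by limma, and 1 was called by DESeq2 (Ugt2b37). Leaving out each library in turn gave 0 to 1 called members, the 1 being Ugt1a10 without knockout 1 at -5.74. Over all genes, 2 were called in the main analysis, 5 without the filter, 14 by DESeq2, 1 by limma at either pseudocount, and 1 to 6 when a library was left out. The median log2 fold change of members was -0.14 to 0.090 over libraries left out, the upper value without control 2. It was -0.04 in the fit with the replicate block, which called 2 genes in all and 0 members. Same-numbered libraries had correlations of 0.09, -0.09 and 0.12 in their deviations, so the numbers were not taken to pair them. The block moved Ugt1a10 to -4.39 and changed no call. Alternative values were compared for the members chosen by level, by unadjusted p under 0.05 or by a call in any fit. Of these 248 values, 239 kept direction and side of the threshold, 2 crossed it and 7 changed sign. The sign changes came when a library was left out: Gstz1 without knockout 1 (0.017, range -0.054 to 0.017 over libraries left out), Gsta2 without control 2 (0.37, range -0.40 to 0.37), Mgst1 without control 2 (0.086, range -0.37 to 0.086), Sult1a1 without knockout 1 or control 3 (-0.25 and -0.19, range -0.25 to 0.30), and Sult1b1 without the same libraries (0.030 and 0.066, range -0.26 to 0.066). Members outside this choice changed sign as well. Among them were Gsta4 (0.35 without control 2), Ugt2b34 (0.16 without control 2), Gsto1 (-0.23 without knockout 1) and Ugt1a9 (0.45 without knockout 2). The cause of the sign changes was not tested. Counts near the filter limit Gsto2, Sult2b1, Gstm3 and Gstm6, and divided reads limit each Ugt1a gene.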
